A study of Mus musculus with 8 samples.

Results

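Semaphorins are secreted or membrane-bound guidance cues, and plexins are the receptors through which most of them act. A plexin that binds its semaphorin inactivates small GTPases of the Ras and Rap families through its cytoplasmic GAP domain, which loosens integrin adhesion and remodels actin, and class 3 semaphorins usually need a neuropilin as a co-receptor. In the embryonic heart these pairs are known for patterning the outflow tract, guiding endothelial and neural crest cells, and directing the migration of myocardial cells during trabeculation. The 9 genes described here are 5 plexins (Plxnd1, Plxna1, Plxna2, Plxna4 and Plxnb2) and 4 semaphorins (Sema3c, Sema3e, Sema6d and Sema4d). They were chosen by name, as semaphorins and plexins of heart development, with earlier results of these data already known. The count table held 55291 gene symbols, and all 9 passed the filter on low counts that left 26820 genes to test.

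The data are bulk RNA-seq of ventricular tissue from mouse embryos at E10.5, with 4 libraries of Pkn2 fl/fl ; XMLC2-Cre+ embryos (Pkn2 cKO) and 4 of Pkn2 fl/fl ; Cre- littermates (control). All embryos carried the floxed Pkn2 allele on a C57BL/6 background (C57BL/6N in the breeding notes), and no agent was given. XMLC2-Cre acts in cardiomyocytes, so the endothelial, epicardial and other cells of the cKO ventricle kept Pkn2, and the controls carried no Cre. PKN2 is a serine/threonine kinase of the protein kinase N family, and the comparison asks which RNA levels differ at this stage when cardiomyocytes lose it. Totals were 47559845 to 56197203 counts per cKO library and 47653972 to 56660938 per control library. Levels are given as CPM, counts scaled to the size of the library. Pkn2 itself was at 77.6 to 84.3 CPM in cKO and 133 to 153 CPM in control libraries, with no overlap (log2 fold change -0.83, SE 0.060, adjusted p = 7.7e-06 by edgeR). Cardiomyocyte markers were abundant in every library, with Tnnt2, cardiac troponin T, at 2322 to 2672 CPM.

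None of the 9 genes passed the threshold between cKO and control (an adjusted p of at most 0.05 in edgeR, adjusted over all genes tested), where 0.858% of all genes tested did. Of the 9, 7 had a log2 fold change above 0, as did 49.8% of all genes, and 6 had an unadjusted p under 0.05, as did 12.8% of all genes. All members but Sema3e had a mean of at least 5 CPM. Of the 11244 genes at that level, 42.15% were higher in cKO, 1.68% passed the threshold, and the median log2 fold change was -0.021. The median log2 fold change of the 9 was 0.22, against -0.00085 over all genes tested. The members were chosen with earlier results of these data known, so these comparisons describe them and test nothing. The largest values belonged to Sema3e (0.79), Plxnd1 (0.44) and Plxna2 (0.32), and the lowest to Plxnb2 (-0.13). Plxna2 was the single member whose cKO and control libraries did not overlap, as in 6.91% of all genes (3.14% with cKO above and 3.77% with cKO below). The count of 0 depended on the tool and on a library. DESeq2 called Plxna2, Plxna4 and Sema3e (3 genes, where it called 867 of all genes). The paper names DESeq2 as its test and also asks for a fold change of at least 1.5. With DESeq2, Sema3e (log2 fold change 0.80, adjusted p = 0.0194) met both rules, and Plxna2 (0.32) and Plxna4 (0.23) did not reach that fold. By edgeR 0.365% of all genes met both. Without a filter edgeR called 5 (of 878 among all), and limma-voom called 0 (of 168 among all). Without cKO replicate 3 edgeR called Plxnd1, Plxna2, Plxna4 and Sema3e (4 genes, of 744 among all).

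**Figure D1:**
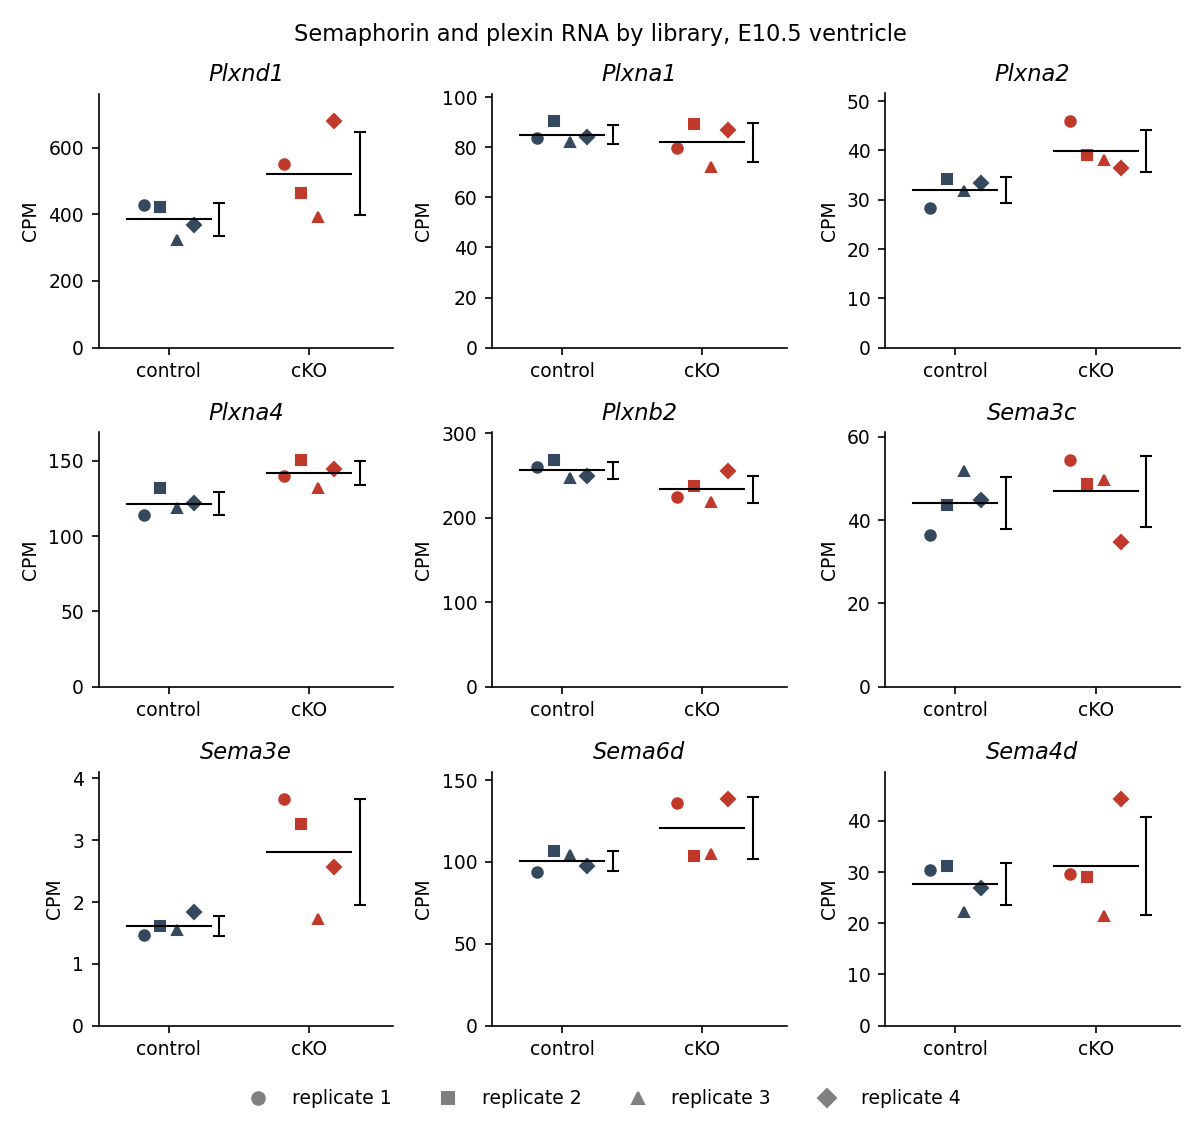
Levels of the 9 genes in CPM (axes from 0) in the 4 control and 4 cKO libraries; points are libraries, horizontal lines group means, and the bars beside them the SD. Plxna2 is the panel in which every cKO point lies above every control point, and in Plxnd1 and Sema3e the cKO points spread more widely than the control points.

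The sequences just upstream of 3 start sites are shown, for genes chosen by their values in the comparison. Plxna2 was the member without overlap and Sema3e the member with the largest fold change. Neither passed the threshold (adjusted p = 0.0787 and 0.106 by edgeR). Sema3g is a class 3 semaphorin, as Sema3e is, and the semaphorin that edgeR called (described with the other pathway genes). Groups did not overlap in 6.91% of all genes tested, so these 3 sequences are shown as examples and mark no result. Each runs 5′ to 3′ on the gene's strand from 250 to 31 bases before the RefSeq start (GRCm38.p6), and capitals mark matches to GGGCGG or its reverse complement, the GC box read by Sp1-like factors.
Plxna2, chr1:194619579-194619798, plus strand: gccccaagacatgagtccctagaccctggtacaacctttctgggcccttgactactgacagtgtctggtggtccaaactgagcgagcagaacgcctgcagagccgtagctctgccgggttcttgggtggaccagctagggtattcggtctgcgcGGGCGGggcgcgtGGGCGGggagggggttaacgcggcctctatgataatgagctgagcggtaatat
Sema3e, chr5:14025026-14025245, plus strand: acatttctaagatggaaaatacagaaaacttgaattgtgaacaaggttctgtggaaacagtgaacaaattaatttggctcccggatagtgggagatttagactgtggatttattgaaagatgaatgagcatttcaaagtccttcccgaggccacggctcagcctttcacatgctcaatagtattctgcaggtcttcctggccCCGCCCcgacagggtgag
Sema3g, chr14:31217623-31217842, plus strand: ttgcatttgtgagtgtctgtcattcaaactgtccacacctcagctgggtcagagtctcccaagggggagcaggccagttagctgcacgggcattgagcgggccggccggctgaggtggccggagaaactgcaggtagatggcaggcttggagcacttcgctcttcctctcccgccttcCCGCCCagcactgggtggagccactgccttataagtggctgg

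The windows differed in base composition, with 60.5% G and C for Plxna2, 44.5% for Sema3e and 60.9% for Sema3g. Plxna2 held 2 GC boxes, 96 and 83 bases before the start, Sema3e 1 and Sema3g 1. Of the 7 members with an entry in the RefSeq table, 5 had a GC box in the window of at least 1 start. Counted by start, as the table is, 6 of the 11 windows of these members had one, and 28.5% of all 32851 windows of the same 220 bases. TGGGAA, the core read by the Notch effector RBPJ, was found in 3 of the 11 windows (1 each of Plxnb2, Sema6d and Sema4d) and in 19.4% of all windows. ACAATG, a Sox core, was found in 1 of the 11, a start of Sema4d, and in 9.78% of all windows, and the same Sema4d start had a CArG box, the SRF motif, as did 1.3% of all windows. The ETS core CCGGAA had no match in the windows of the 7 members (9.47% of all windows). Neither did the element AGATAA read by GATA factors (9.04%), the TATA element TATAAA (9.95%) or the E-box CACGTG (5.01%). Both strands were searched, none of these matches overlapped one of another motif, and a match describes letters, not a bound site.

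On the length-scaled TPM scale, which allows levels of different genes to be compared, the 9 genes spanned from 0.576 TPM (Sema3e) to 117 TPM (Plxnd1) as means over the 8 libraries. Plxnd1 was the most abundant in all 8 libraries, at 81.7 to 178 TPM, and Plxnb2 came next at 59.7 to 76.7 TPM, also in all 8. Sema6d was the most abundant of the 4 semaphorins at 28.9 to 48.2 TPM, above Plxna1 in all 8 libraries. Plxna1 (17.0 to 21.9 TPM), Plxna4 (15.4 to 21.4 TPM), Sema3c (11.5 to 18.3 TPM) and Sema4d (8.49 to 18.04 TPM) formed a run in which each gene's range overlapped the next, so the order of neighbours is not resolved beyond the spread over libraries. Within libraries, Plxna1 and Plxna4 were each above Sema4d, and Plxna1 above Sema3c, in all 8. Plxna2 was lower at 4.5 to 7.48 TPM, and Sema3e lowest at 0.362 to 0.982 TPM, which rested on 78 to 185 counts per library. Spread within a group was largest in cKO for Sema3e (coefficient of variation 32.5%), Sema4d (31.6%) and Plxnd1 (24.5%), against 11.2%, 17.3% and 14.2% in controls.

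Plxnd1 (ENSMUSG00000030123, chr6:115954811-115995005 on GRCm38, minus strand) encodes the receptor through which Sema3e restrains endothelial sprouting, and it is expressed mainly by endothelial and endocardial cells. Its level in cKO replicates 1 to 4 was 549.8, 462.6, 392.8 and 680.8 CPM, and in control replicates 1 to 4 it was 426.6, 421.1, 321.8 and 369.2 CPM. Replicates 4 and 1 were the highest cKO libraries, replicate 3 lay within the control range, and 3 of 4 cKO libraries were above every control. The cKO mean was 521.5 ± 124 CPM and the control mean 384.7 ± 49.3 CPM (SD, n = 4 per group), which gave 0.44 on the log2 scale (SE 0.13, 95% interval 0.16 to 0.71, adjusted p = 0.130 by edgeR). Without cKO replicate 4 the value was 0.29 (adjusted p = 0.256), and without cKO replicate 3 it was 0.56 (adjusted p = 0.0194), so the value and its side of the threshold depended on single libraries.

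The class A plexins pair with neuropilins to receive class 3 semaphorins, and Plxna2 and Plxna4 also bind class 6 semaphorins directly. Plxna2 (ENSMUSG00000026640, chr1:194619825-194816869, plus strand), known from the migration of cardiac neural crest, was at 46.03, 39, 38.05 and 36.36 CPM in cKO and 28.4, 34.2, 31.9 and 33.4 CPM in control replicates 1 to 4. The lowest cKO library, replicate 4, was above the highest control, replicate 2 (p = 0.0286 by an exact two-sided permutation of the 8 libraries, which cannot give less). On the log2 scale cKO differed from control by 0.32 (SE 0.080, 95% interval 0.15 to 0.49, adjusted p = 0.0787 by edgeR). It came under the threshold without cKO replicate 3 (0.34, adjusted p = 0.0490) and without cKO replicate 4 (0.37, adjusted p = 0.0440). With a trend over gene length taken out the value was 0.24 (adjusted p = 0.105 by edgeR).

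Plxna4 (ENSMUSG00000029765, chr6:32144268-32588192, minus strand), best known as a receptor in sensory and sympathetic axons, was at 139.8, 150.7, 131.6 and 144.5 CPM in cKO and 113.7, 131.7, 118.7 and 122.2 CPM in control replicates 1 to 4. The groups touched: cKO replicate 3 lay just under control replicate 2, and the other 3 cKO libraries were above every control. On the log2 scale cKO differed from control by 0.22 (SE 0.061, 95% interval 0.091 to 0.35, adjusted p = 0.107 by edgeR), and without cKO replicate 3 it was 0.26 (adjusted p = 0.0364). With a trend over gene length taken out the value was 0.14 (adjusted p = 0.262 by edgeR). Plxna1 (ENSMUSG00000030084, chr6:89316314-89362620, minus strand), which together with Kdr forms a receptor for Sema6d in the developing heart, was at 72.2 to 89.1 CPM in cKO and 81.9 to 90.6 CPM in control libraries. Its log2 fold change was -0.05 with a 95% interval from -0.20 to 0.090 (adjusted p = 0.823), and its sign turned without cKO replicate 3 (0.0052).

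Plxnb2 (ENSMUSG00000036606, chr15:89155549-89180788, minus strand), a receptor for class 4 semaphorins that signals to RhoA through the exchange factors Arhgef11 and Arhgef12, was at 224.7, 237.1, 219.0 and 254.9 CPM in cKO and 260.2, 268.8, 246.8 and 250 CPM in control replicates 1 to 4. Here 3 cKO libraries were below every control, and cKO replicate 4 lay inside the control range. On the log2 scale cKO differed from control by -0.13 (SE 0.060, 95% interval -0.26 to -0.0064, adjusted p = 0.364 by edgeR).

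Among the ligands, Sema3e (ENSMUSG00000063531, chr5:14025276-14256689, plus strand), the secreted cue that binds Plxnd1 without a neuropilin, was at 3.67, 3.26, 1.72 and 2.57 CPM in cKO and 1.46, 1.62, 1.55 and 1.84 CPM in control replicates 1 to 4. In cKO, 3 libraries were above every control and replicate 3 was within the control range. On the log2 scale cKO differed from control by 0.79 (SE 0.22, 95% interval 0.33 to 1.26, adjusted p = 0.106 by edgeR), and without cKO replicate 3 it was 0.97 (adjusted p = 0.0144).

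Sema6d (ENSMUSG00000027200, chr2:124089969-124667770, plus strand), a transmembrane semaphorin that acts as ligand and, through its own cytoplasmic tail, as receptor in myocardial cells, was at 135.9, 103.5, 105.0 and 138.6 CPM in cKO and 93.6, 106.8, 104.4 and 97.6 CPM in control replicates 1 to 4. Replicates 1 and 4 were above every control, while cKO replicates 2 and 3 were within the control range. The difference of cKO from control was 0.26 on the log2 scale (SE 0.090, 95% interval 0.073 to 0.45, adjusted p = 0.198 by edgeR). Without cKO replicate 4 it was 0.20 (adjusted p = 0.379).

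Sema3c (ENSMUSG00000028780, chr5:17574281-17730268, plus strand), the cue that draws neural crest cells into the outflow tract, was at 34.8 to 54.5 CPM in cKO and 36.5 to 51.7 CPM in control libraries. The groups overlapped widely, with cKO replicate 4 the lowest and cKO replicate 1 the highest of the 8 libraries, and the log2 fold change was 0.086 with a 95% interval from -0.16 to 0.34 (adjusted p = 0.842). It ran from 0.0079 without control replicate 1, and 0.011 without cKO replicate 1, to 0.17 without control replicate 3 and 0.21 without cKO replicate 4, never past the threshold. Sema4d (ENSMUSG00000021451, chr13:51701246-51793747, minus strand), a ligand of B-class plexins that is also made by leukocytes and platelets, was at 21.4 to 44.3 CPM in cKO and 22.2 to 31.2 CPM in control libraries. Only cKO replicate 4 was above every control, and the log2 fold change of 0.17 (95% interval -0.17 to 0.51, adjusted p = 0.757) became -0.05 (adjusted p = 0.947) without that library.

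**Figure D2:**
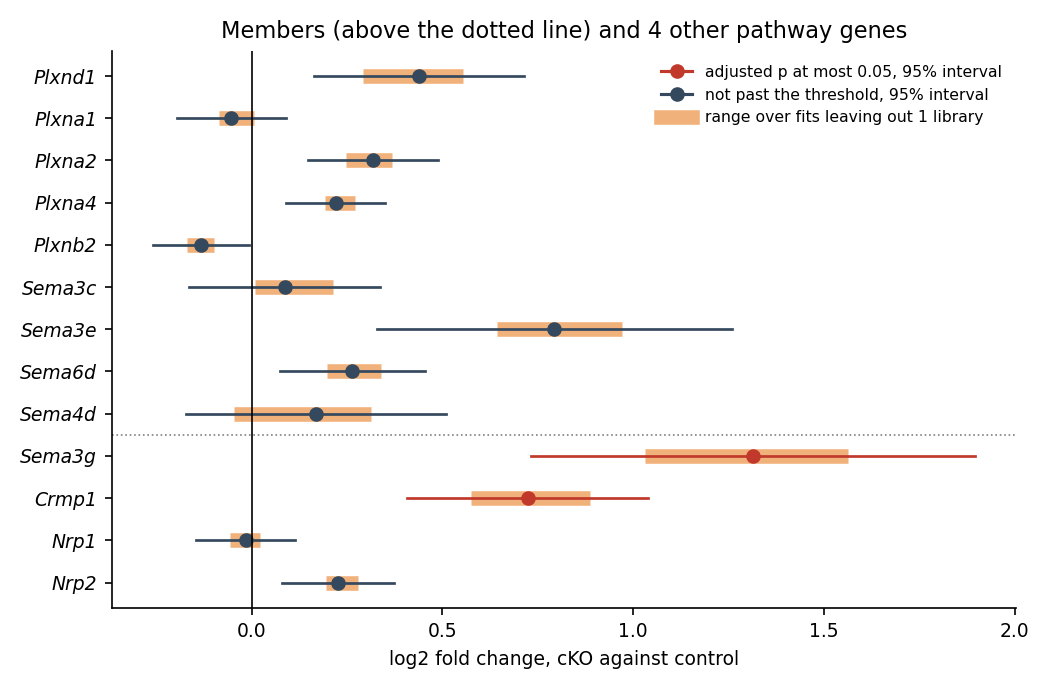
Log2 fold change of cKO against control (dot) with its 95% interval (line) from edgeR, and the range over the 8 fits that leave out 1 library (orange band), for the 9 genes and, under the dotted line, 4 other genes of the pathway. The 9 genes are not past the threshold, Sema3g and Crmp1 are, and the bands of Plxna1, Sema4d and Nrp1 cross 0.

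The composition of plexin RNA was compared within libraries, where scaling between libraries plays no part. Of the summed TPM of all 9 mouse plexins, Plxnd1 took 48.9%, 43.5%, 41.6% and 52.6% in cKO and 42.0%, 40.2%, 36.3% and 39.01% in control replicates 1 to 4. Plxnb2 took 21.3%, 24.0%, 24.8% and 21.0% in cKO and 27.3%, 27.5%, 29.7% and 28.3% in controls. The Plxnb2 share was thus lower in every cKO library than in any control, and cKO replicate 3 kept the Plxnd1 shares of the groups from separating.

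The difference in mean share was 7.26 percentage points for Plxnd1 (two-sided exact permutation test, p = 0.0571, adjusted p = 0.129 over 9 plexins) and -5.43 points for Plxnb2 (p = 0.0286, the smallest possible, adjusted p = 0.129). Plxnb1, the paralog of Plxnb2 that binds Sema4d, also had a lower share in every cKO library (7.19% ± 0.967 against 8.53% ± 0.149, SD, n = 4 each, exact permutation p = 0.0286, adjusted p = 0.129). Shares of one sum are not independent, since a larger Plxnd1 share lowers the others, and no share passed after adjustment. Together Plxnd1 and Plxnb2 made up 66.4% to 73.5% of plexin RNA in cKO and 66.0% to 69.3% in control libraries. The 9 plexins summed to 240.9 to 339.1 TPM in cKO and 224.9 to 279.0 TPM in controls, and the 20 semaphorins to 151.1 to 186.7 TPM and 139.2 to 164.3 TPM, with overlap between groups in both families.

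**Figure D3:**
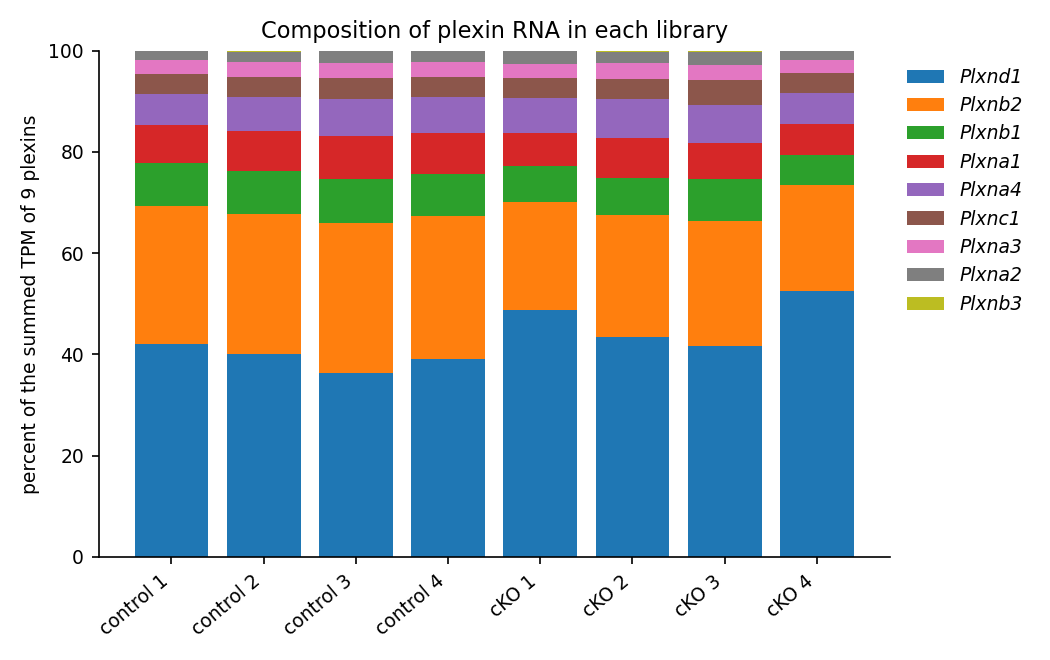
Share of each of the 9 plexins in their summed TPM, in percent, stacked to 100 for each library. Plxnd1 (bottom) takes 36.3% to 42.0% in control and 41.6% to 52.6% in cKO libraries, and the Plxnb2 segment above it is narrower in each cKO library than in any control library.

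Of the other genes of the pathway, 57 on a list of semaphorins, plexins, co-receptors and intracellular partners were tested. Of these, 2 passed the threshold, both higher in cKO (3.51% of the list, against 0.515% of all genes tested called higher), and none passed lower (0.343% of all genes). Among genes with a mean of at least 5 CPM, 1.68% passed in either direction. The list's median log2 fold change was 0.055, with 38 of 57 genes above 0. Of all genes tested 49.8% were above 0, and of those with a mean of at least 5 CPM 42.15% were. Both calls depended on single libraries and on the tool, and 21 of the 57 had an unadjusted p under 0.05, as did 12.8% of all genes.

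Sema3g, a class 3 semaphorin made by arterial endothelium (ENSMUSG00000021904), was at 22.2, 10.7, 6.34 and 18.2 CPM in cKO and 6.39, 6.49, 4.36 and 5.89 CPM in control replicates 1 to 4. Replicates 1 and 4 were far above the controls and replicate 3 was among them. On the log2 scale cKO differed from control by 1.31 (SE 0.27, adjusted p = 0.0326 by edgeR). The call was lost in 6 of the 8 fits that left out 1 library, those without cKO replicate 1 or 4 or any 1 control (1.03, adjusted p = 0.125 without cKO replicate 1), and with limma-voom (adjusted p = 0.112).

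Crmp1, a collapsin response mediator that carries semaphorin signals to microtubules (ENSMUSG00000029121), was at 42.2, 30.5, 20.9 and 35.6 CPM in cKO and 19.3, 18.9, 18.05 and 22.1 CPM in control replicates 1 to 4, again with replicate 3 the lowest in cKO. The difference on the log2 scale was 0.72 (SE 0.15, adjusted p = 0.0305 by edgeR), and its call was lost in the fits without the same 6 libraries (0.57, adjusted p = 0.0979 without cKO replicate 1) and with limma-voom (adjusted p = 0.0760). Its paralogs Dpysl2 to Dpysl5 had log2 fold changes from -0.018 to 0.17 and did not pass.

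Of the neuropilins, Nrp1, the co-receptor for Sema3a and for VEGF, was at 169.6 to 194.9 CPM in cKO and 169.2 to 194.3 CPM in controls, a log2 fold change of -0.016 with a 95% interval from -0.15 to 0.11 (adjusted p = 0.957), whose sign turned without cKO replicate 3 (0.022), control replicate 2 (0.012) or control replicate 4 (0.0099). Nrp2, the co-receptor for Sema3c and Sema3f, was at 44.6, 43.0, 38.5 and 45.8 CPM in cKO and 34.0, 37.4, 35.9 and 39.6 CPM in control replicates 1 to 4, a log2 fold change of 0.23 (95% interval 0.080 to 0.37, adjusted p = 0.142 by edgeR). Nrp2 was under the threshold with DESeq2 (adjusted p = 0.0410) and without cKO replicate 3 (0.28, adjusted p = 0.0341).

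By class, the 16 other semaphorins ranged from -0.41 (Sema5b) to 1.31 (Sema3g) with a median of 0.070 and 1 called. The 4 other plexins ranged from -0.076 (Plxnb1) to 0.52 (Plxnb3), and the 9 co-receptors from -0.21 (Erbb2) to 0.53 (L1cam). By edgeR 0 were called in either class, where 0.858% of all genes were. An unadjusted p under 0.05 was found for 3 of 4 and 5 of 9, and for 12.8% of all genes. DESeq2 called 0 of these plexins and 4 of the co-receptors (867 of all genes), and limma-voom called 0 of both (168 of all genes). Among the 28 intracellular partners the median was 0.038 and 1 was called. Arhgef11 and Arhgef12, through which B-class plexins act on RhoA, stood at 0.11 (adjusted p = 0.610) and 0.032 (adjusted p = 0.922) on the log2 scale.

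**Figure D4:**
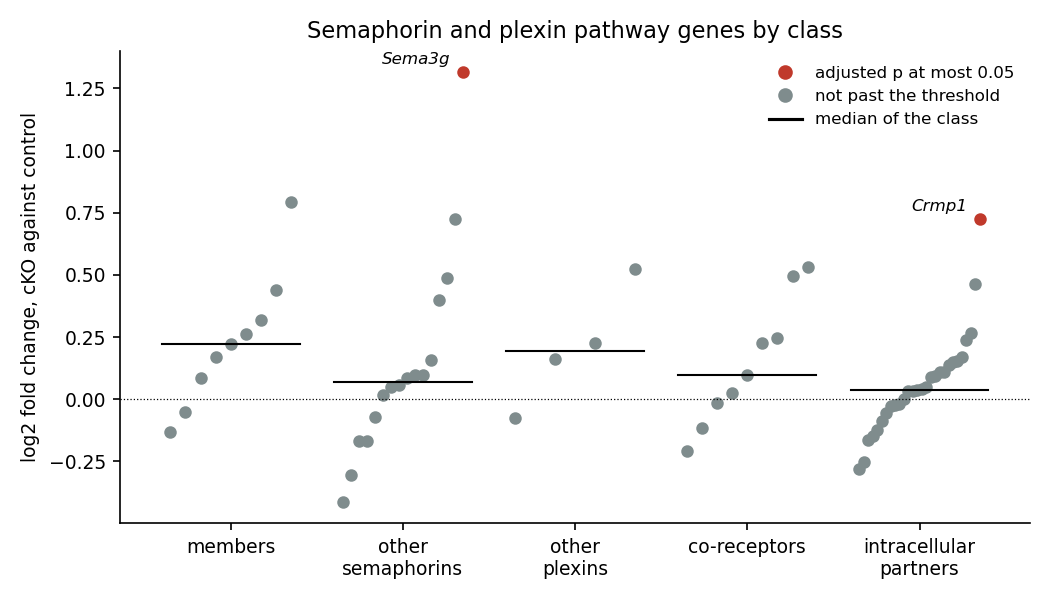
Log2 fold change of cKO against control for the 9 members and the 57 other genes of the pathway, by class; each point is a gene, black lines are class medians, and red points passed an adjusted p of 0.05. Sema3g and Crmp1 are the 2 red points, and the class medians run from 0.038 to 0.22.

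Markers of endothelial and endocardial cells differed between the groups. In bulk tissue, more cells of a type and more RNA per cell cannot be told apart. Of 20 endothelial and endocardial markers, 20 had a log2 fold change above 0 (49.8% of all genes tested). By edgeR 7 passed the threshold (0.858% of all genes) and 18 had an unadjusted p under 0.05 (12.8%). DESeq2 called 16 (where it called 867 of all genes) and limma-voom 3 (of 168 among all). Groups did not overlap for 11 of these markers (6.91% of all genes). Their summed level was 2546, 2139, 2120 and 2698 CPM in cKO replicates 1 to 4 and 1980, 1929, 1677 and 1900 CPM in control replicates 1 to 4. Every cKO library was above every control, and the cKO libraries fell in the same order as for Plxnd1, with replicates 4 and 1 highest and replicate 3 lowest. In the marker sum cKO replicates 2 and 3 were close (2139 and 2120 CPM), so their order there is not resolved. Sema4d fell in the order of Plxnd1 too, and the other members did not. Sema3c and Plxna2 were lowest in cKO replicate 4 and Sema6d in cKO replicate 2. Plxna1, Plxna4, Plxnb2 and Sema3e were lowest in cKO replicate 3, with the other cKO libraries in a different order.

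Set against the summed TPM of those markers in the same library, a description added after seeing the data, Plxnd1 stood at 9.86%, 10.1%, 8.52% and 11.5% in cKO and 9.90%, 10.2%, 8.91% and 8.96% in control replicates 1 to 4 and the groups overlapped, with a log2 difference of 0.070 in this ratio. The same ratio gave log2 differences of -0.025 for Plxna2, -0.13 for Plxna4, -0.072 for Sema6d, -0.26 for Sema3c and -0.20 for Sema4d, each with overlapping groups and a sign opposite to that of the level. Plxna1 had a log2 difference of -0.40, also with overlap. Sema3e kept a positive value (0.40) and so did Sema3g (0.83), with overlap between groups in both. Plxnb2 was lower relative to the markers in every cKO library (4.88% ± 0.544 against 6.79% ± 0.402, SD, n = 4 each). The markers were themselves higher in every cKO library, so a gene that rose less than they did, or not at all, falls in this ratio. The ratio is a description of these libraries, and the part of cell composition in the levels was not tested.

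Over all genes tested, 49.8% had a log2 fold change above 0, 0.858% passed by edgeR and 12.8% had an unadjusted p under 0.05. DESeq2 called 867 of all genes and limma-voom 168. Of 12 cardiomyocyte markers, 9 were lower in cKO and 3 higher, and 0 passed the threshold by edgeR. Of these 12, 3 had an unadjusted p under 0.05, and DESeq2 called 1, lower in cKO. Nkx2-5 was below every control in each cKO library (log2 fold change -0.32, adjusted p = 0.109 by edgeR), as were 3.77% of all genes. The summed level of the list overlapped between groups. Epicardial markers summed to 344.5 to 522.4 CPM in cKO and 438.1 to 464.1 CPM in controls, and cushion and outflow mesenchyme markers to 278.1 to 353.5 CPM and 236.8 to 308.0 CPM, with 0 called in either list by edgeR (2 of 8 and 1 of 8 at an unadjusted p under 0.05, and 2 and 0 by DESeq2). All 11 macrophage markers had a log2 fold change above 0 and 2 passed by edgeR (C1qb and C1qc; 11 at an unadjusted p under 0.05, 5 by DESeq2 and 0 by limma-voom), at a summed 13.1 to 44.1 CPM in cKO and 7.68 to 13.4 CPM in controls. Erythroid markers overlapped widely (1376 to 4845 CPM in cKO, 1513 to 4686 CPM in controls), and 0 of 7 passed by edgeR, at an unadjusted p under 0.05 or by DESeq2. Of the neural crest and neuronal markers, 5 of 7 had enough counts to test and 0 passed by edgeR (1 at an unadjusted p under 0.05, and 1 by DESeq2). The part of these cell types in the members' levels was not tested. Sox10, which defines neural crest, was at 0.20 to 0.94 CPM.

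**Figure D5:**
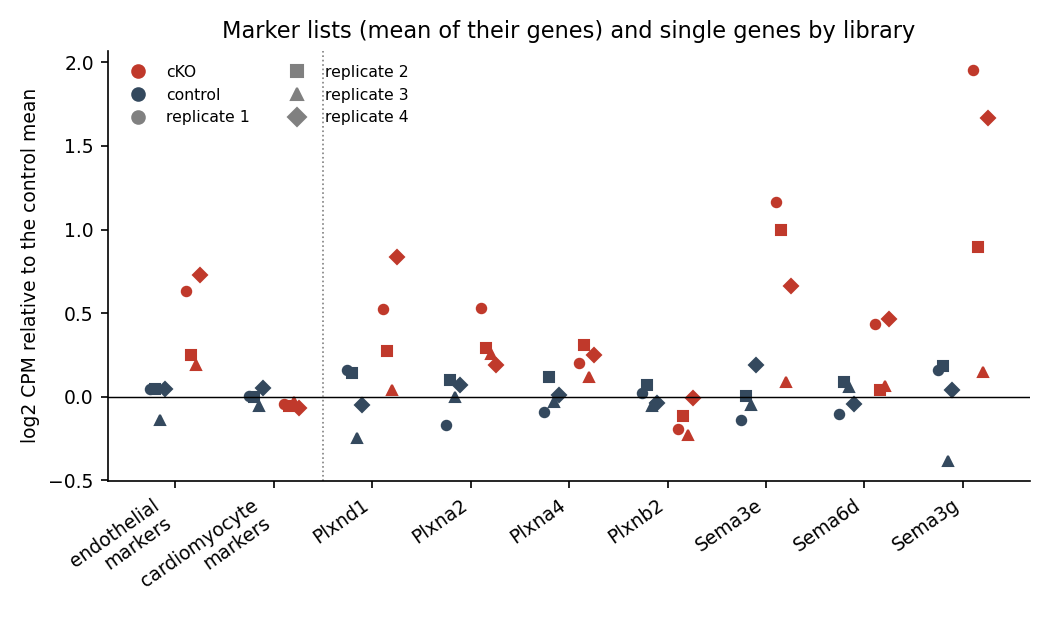
Log2 CPM relative to the control mean by library, for the mean of 20 endothelial and endocardial and 12 cardiomyocyte markers (left of the dotted line) and for single genes. In the endothelial list and in Plxnd1, Sema6d and Sema3g, cKO replicates 1 and 4 are the 2 highest points, and the cardiomyocyte list stays between -0.07 and 0.05.

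The genes whose pattern over the 8 libraries was nearest to that of each member were found among 11244 genes with a mean of at least 5 CPM, by the root mean square difference of log2 CPM after centring each gene on its mean. For Plxnd1, whose own spread around its mean was 0.317, the nearest were Col4a1 (difference 0.061), Nid1 (0.071) and Col4a2 (0.072), which encode chains of type IV collagen and nidogen, structural parts of basement membranes. For Plxna2 they were 6430548M08Rik and Itga6 (0.054 each), the latter a laminin-binding integrin chain, and Ccdc125 (0.059), where the spread of Plxna2 was 0.196. Plxna4 (spread 0.133) had Plxna3 (0.039), Zswim6 (0.041) and Per2 (0.046) as its nearest genes. Those of Plxna1 (spread 0.097) were Scap (0.034), Unk (0.039) and Rexo1 (0.043), and those of Plxnb2 (spread 0.096) were Vasn (0.024), Notch2 and Alg9 (0.033 each). Among the ligands, Sema3e (spread 0.474) was nearest to Crmp1 (0.153), Limch1 (0.154) and Npas4 (0.165). Sema3c (spread 0.217) was nearest to the mitochondrial gene mt-Nd5 (0.070), Kcnq1ot1 (0.084) and Gm45457 (0.087). The nearest genes of Sema6d (spread 0.196) were Taok3 (0.050), Klf7 (0.057) and Ltbp1 (0.061), and those of Sema4d (spread 0.304) were Slc38a3 (0.139), Bmp6 (0.146) and P4ha2 (0.150). Likeness over 8 libraries is a description.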

How the data were processed

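RNA was sequenced from ventricular tissue of 8 E10.5 libraries, 4 cKO and 4 control, grouped by sample title. The authors deposited a table of unnormalized read counts by gene symbol and a second table of TPM; each library has its own column. Methods name nf-core/rnaseq and GRCm39. The submitters' processing notes list FastQC, Trim Galore 0.6.7, HISAT2 2.2.1, StringTie 2.2.1, featureCounts and DESeq2; the counting strand is not given in the sources used here. Positions in the TPM table are GRCm38: 85.8% of 37780 genes started within 1000 bases of their GRCm38.p6 start and 3.26% within that of GRCm39. The methods and series text differ on read length.

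Genes reaching 8 counts summed over the libraries were tested with edgeR 4.0.16 (quasi-likelihood, TMM, condition alone; R 4.3.3), with Benjamini-Hochberg adjustment. CPM were scaled by TMM, and log2 CPM added a prior count of 2. Permutation tests were exact and two-sided (scipy 1.17.1). Intervals are 95%. Alternatives used DESeq2 1.42.0, limma 3.58.1, other filters, other scalings, log2 TPM after adding 1 or 0.1, a gene length trend taken out (loess span 0.3), the replicate number as a block and each library left out. The edgeR fit was also tested on simulated data with 200 changed genes. It recovered 59% of planted log2 changes of 0.5 and 92% of those of 1, and 2.58% of its calls were false. Libraries of a group differed by more than counting error (chi-square per degree of freedom 11.0 to 35.3 over 12 pairs), and the methods name the animal or embryo as the experimental unit unless specified, without saying it separately for these libraries.

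Members and gene lists were chosen with earlier results of these data known. Named genes were the 9 members, Pkn2, Nrp1, Nrp2, pathway genes past the threshold, the 3 genes nearest in pattern to each member, and markers where a list is described; other genes named as class extremes or partners (Sema5b, Plxnb1, Plxnb3, Erbb2, L1cam, Arhgef11, Arhgef12 and the Dpysl genes) were chosen after their values were seen. Upstream sequences are RefSeq's (GRCm38.p6), which held entries for 7 of 9 members.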

Additional observations from a re-analysis of the deposited data

Results flagged for a closer look

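The share of Plxnc1 in plexin TPM was 4.90% in cKO replicate 3, while the other 3 cKO libraries stood between 3.933% and 3.998%, which set that library apart from its group by Dixon's criterion. Of 46 groups of 4 libraries examined this way 1 was set apart, and chance sets apart about 1 in 20.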

How the results depend on the processing

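Leaving out 1 library gave 67 to 744 calls over all genes (230 with all libraries), 0 to 4 among the 9 members and 0 to 5 among the 57 other pathway genes. Over these fits the log2 fold change ran from 0.29 to 0.56 for Plxnd1, 0.25 to 0.37 for Plxna2, 0.19 to 0.27 for Plxna4, 0.64 to 0.97 for Sema3e, 0.20 to 0.34 for Sema6d, -0.087 to 0.0052 for Plxna1 (0.0052 without cKO replicate 3), 0.0079 to 0.21 for Sema3c, -0.17 to -0.099 for Plxnb2, -0.045 to 0.31 for Sema4d (lowest without cKO replicate 4), and -0.86 to -0.80 for Pkn2, which kept its call in the alternatives run. DESeq2 called 867 genes, 3 members (Plxna2 0.32, Plxna4 0.23, Sema3e 0.80) and 7 pathway genes. Without a filter edgeR called 878, 5 (Plxnd1 0.45, Plxna2 0.33, Plxna4 0.23, Sema3e 0.80, Sema6d 0.27) and 4. Limma-voom called 0 pathway genes and filterByExpr 1. With the length trend removed edgeR called 293 genes, 0 members and 2 pathway genes. The value of each member was then lower than in the main fit: 0.39 (Plxnd1), -0.10 (Plxna1), 0.24 (Plxna2), 0.14 (Plxna4), -0.17 (Plxnb2), 0.065 (Sema3c), 0.75 (Sema3e), 0.24 (Sema6d) and 0.15 (Sema4d). Limma on TPM called 1 gene (pseudocount 1), 7 (0.1) and 22 (mean TPM at least 1), and 0 pathway genes each time. The cause of these differences was not tested.

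Deviations of same-numbered libraries correlated at -0.252, -0.0449, 0.0606 and -0.182 over 11244 genes, which gave no sign that the replicate numbers pair the samples. The labels do not give the litter of each library, so pairing by litter was not tested. With the replicate block, 380 genes and 1 member passed (Plxnd1 0.42, adjusted p = 0.0298), and with the block and the length trend removed 359 and 1 (Plxnd1 0.38).

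A ratio to summed endothelial markers, chosen after seeing the data, lowers the values because those markers were higher in cKO. The values were 0.070 (Plxnd1), -0.40 (Plxna1), -0.025 (Plxna2), -0.13 (Plxna4), -0.48 (Plxnb2), -0.26 (Sema3c), -0.072 (Sema6d) and -0.20 (Sema4d). Sema3e has no value at a mean TPM of at least 1. The sign of Nrp1 turned on TPM (0.0085, 0.0086 and 0.0085) and, over a leave-one-out range of -0.057 to 0.022, without cKO replicate 3 (0.022), control replicate 2 (0.012) or control replicate 4 (0.0099). Differences in share turned for Plxna3 (0.0077, 0.082 and 0.037 points without cKO replicate 1, cKO replicate 4 or control replicate 3), Plxna4 (-0.030 without control replicate 1, up to 0.55) and Plxnc1 (-0.044 without cKO replicate 3, up to 0.28).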
